A study of Mus musculus with 10 samples.

Results

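The Hox genes of clusters A to D are the homeobox genes that mammals carry in 4 tight chromosomal groups, and here they are the genes of the deposited table whose symbol is Hoxa, Hoxb, Hoxc or Hoxd followed by a number. This rule took 39 of 55385 genes. HoxA holds 11 members on chromosome 6 (52155590 to 52260880), HoxB 10 on chromosome 11 (96194316 to 96368256), HoxC 9 on chromosome 15 (102921103 to 103036852) and HoxD 9 on chromosome 2 (74668310 to 74765142), in the mouse build GRCm38 (mm10).

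RNA was sequenced from 10 samples of a mouse ovarian tumour line that carries mutations of both Arid1a, a subunit gene of the SWI/SNF chromatin remodeller, and Pik3ca, a kinase of growth factor signalling. All 10 samples share these mutations. The sample titles spell the line APV245, while the design text spells it APC245. In 5 samples the line carried IL6 shRNA1, a single short hairpin RNA against the cytokine gene Il6 (genotype label: IL6 knockdown). The other 5 carried a control shRNA, a non-mammalian hairpin in the lentiviral vector pLKO.1-puro. All are labelled as untreated and as batch 1. The sample labels describe tumour cells kept in DMEM medium, whereas the design text describes tumours raised subcutaneously from the line. Whether the line is a single clone and the sources used here do not give the strain, age or number of host mice. No label says that the 5 samples of a group came from separate cultures or animals, so the p-values below measure the spread between these samples, which may be technical.

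Hox proteins are transcription factors that bind DNA through a homeodomain, usually together with cofactors of the PBX and MEIS families, and give cells their position along the body axis. Genes of a cluster lie in the order in which they act from head to tail, the lowest numbers anteriorly and the highest posteriorly, and genes with the same number in different clusters are paralogues. In the female reproductive tract the posterior HoxA genes mark successive segments from oviduct to vagina. Polycomb complexes keep Hox genes silent outside their domain, trithorax complexes keep them active, and retinoic acid switches on the anterior ones. The clusters also hold microRNAs, short RNAs that pair with target messenger RNAs through their seed, bases 2 to 8.

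Within the clusters, the 5p microRNAs of the 196 family share 1 seed and those of the 10 family another. They are shown because a gene for miR-196a lies just upstream of Hoxb9, the member that differed most. Mature sequences are those of RefSeq for GRCm38.p6, with the seed in capitals.

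miR-196a-5p: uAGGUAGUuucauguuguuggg
miR-196b-5p: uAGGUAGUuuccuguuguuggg
miR-10a-5p: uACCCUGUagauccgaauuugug
miR-10b-5p: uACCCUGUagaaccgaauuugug

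The mature miR-196a-5p is encoded at chr11:96265187-96265208 on the plus strand, between Hoxb13 and Hoxb9, and again in HoxC at chr15:102973365-102973386. The gene of miR-196b-5p lies in HoxA at chr6:52230129-52230150 on the minus strand. HoxB holds the gene of miR-10a-5p and HoxD that of miR-10b-5p.

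A messenger RNA that miR-196a is known to cut is that of Hoxb8, a neighbour of the microRNA gene and 1 of the members that rose. The 3′ untranslated regions (UTRs) of 21677 genes in the GENCODE M21 transcripts were searched for the stretch of 22 bases that pairs best with miR-196a-5p. Capitals mark the bases that pair with it by Watson-Crick rules.

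Hoxb8 site: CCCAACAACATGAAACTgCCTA
Hoxd8 site: CtCAACAACATaAActTcCtaA

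The Hoxb8 site, at chr11:96284888-96284909 on the plus strand, paired at 21 of 22 bases. Its single difference from the full complement is A18G, counted from 1 at the 5′ end of the site. This difference lies opposite the seed, where 6 of 7 bases paired by Watson-Crick rules and the remaining G faces a U of the microRNA. No other gene of the 21677 had a match as good. Ranked by all 22 bases, the next best member was Hoxd8 (chr2:74707120-74707141), with 15 of 22 bases, a match that 4.57% of genes reached. Only 2 of its 7 bases facing the seed paired. In the best stretches of Hoxa7, Hoxa9 and Hoxb7 all 7 did, at 14 of 22 bases, a match that 20.7% of genes reached. Sites were not searched by the seed alone. The median of the best match was 13 bases over all genes and also 13 over the 39 Hox genes.

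The libraries held 17905397 to 19934278 counts in the IL6 shRNA1 group and 18224751 to 22682346 in the control group. Il6 itself stood at 1.73 ± 0.41 CPM (counts scaled to a common library size) in the libraries labelled IL6 shRNA1 and at 1.26 ± 0.64 CPM in the controls (SD, n = 5 each). The mean was thus above that of the controls, without passing the test (log2 fold change 0.44 ± 0.36 SE, adjusted p = 0.44, edgeR quasi-likelihood test). Il6 had 9 to 48 counts a library. With a leukocyte score as covariate, described further on, its value was -0.76 (adjusted p = 0.47, same test). The cell type that its reads came from was not tested. Directions drawn below are therefore those between libraries labelled IL6 shRNA1 and control, named by their labels alone. Among all genes tested 5.62% were higher in the libraries labelled IL6 shRNA1 and 6.16% lower. Of 20 leukocyte markers 18 could be tested, and 12 were higher in the libraries labelled IL6 shRNA1. Their summed level spanned 3192 to 6399 CPM there and 1177 to 3321 CPM in control. Of 12 fibroblast and pericyte markers 0 were higher and 2 lower, with summed levels of 38052 to 68734 CPM and 37805 to 88986 CPM. Of 8 ovarian tumour and mesothelial markers 7 were tested and 1 was higher, with sums of 309 to 350 CPM against 130 to 325 CPM. Skeletal muscle markers summed to 45.4 to 8879 CPM in one group and 18.3 to 981 CPM in the other. The samples thus held transcripts of several cell types. Fewer cells of a type and less RNA per cell cannot be told apart in such samples.

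The posterior HoxC genes were the most abundant Hox transcripts. On the scale of deposited FPKM values, which divide by gene length and so allow genes to be compared, Hoxc12 led with a mean of 39.9 over the 10 libraries. Hoxc11 followed at 29.7, Hoxc10 at 20.4 and Hoxc13 at 11.8 FPKM. Of these, Hoxc12 and Hoxc13 are best known from the hair follicle and Hoxc10 from the hindlimb level of the spinal cord.

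Below them came Hoxa10, which patterns the uterus, at 5.52 FPKM, Hoxc6 at 5.51, Hoxc9 at 4.87 and Hoxb13 at 4.49. The median over the 39 members was 1.76 FPKM. The FPKM of Hoxc11 was 27.5, 30.4, 29.0, 30.2 and 19.8 in IL6 shRNA1 libraries 1 to 5, and 32.5, 29.0, 33.5, 35.5 and 29.1 in control libraries 1 to 5. The groups overlapped on this scale.

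Hoxc6 read 5.00, 5.00, 6.73, 7.16 and 4.85 FPKM with IL6 shRNA1 and 6.08, 4.55, 5.43, 5.92 and 4.40 in control. Hoxc9 read 4.37, 5.24, 5.26, 4.89 and 3.86 against 5.53, 4.96, 5.21, 5.11 and 4.29. For Hoxb13, known for prostate and tail development, the values were 4.05, 4.32, 5.65, 4.19 and 4.04 against 4.58, 5.70, 4.02, 3.52 and 4.80. In each of these 3 genes the groups overlapped.

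At the other end, 5 members had too few counts to be tested. Hoxd12 had 0 to 2 counts a library, Hoxd1 0 to 2, Hoxd3 0 to 6, Hoxb1 0 to 6 and Hoxd4 2 to 11. These are 4 of the 9 HoxD genes and the most anterior HoxB gene. The map of mean levels by cluster and paralogue number shows the band of high HoxC values and the low anterior HoxD corner.

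**Figure D1:**
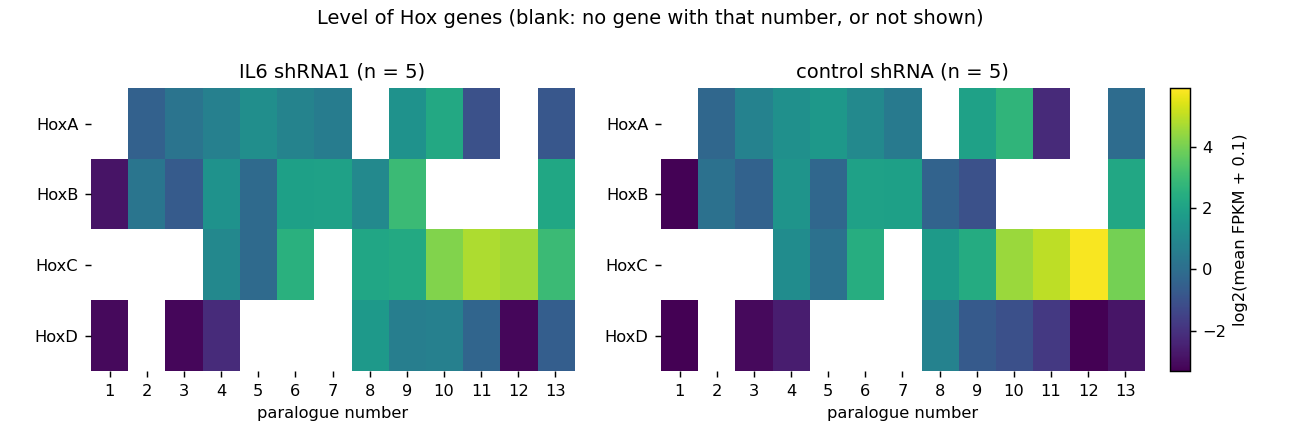
Mean level of Hox genes, as log2(mean FPKM + 0.1), by cluster (rows) and paralogue number (columns), for the 5 IL6 shRNA1 libraries (left) and the 5 control libraries (right); blank squares are numbers with no gene in that cluster or not shown. The brightest squares are Hoxc10 to Hoxc13 in both groups, and the square of Hoxb9 is brighter on the left (7.68 FPKM) than on the right (0.395 FPKM).

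Hox genes differed between the 2 groups in both directions. Of the 34 members tested, 14 passed an adjusted p of 0.05, which is 41.2%, where 11.8% of all 15064 genes tested did. Higher with IL6 shRNA1 were 7 members (20.6%, against 5.62% of all genes): Hoxb9, Hoxd13, Hoxd10, Hoxd11, Hoxb8, Hoxd9 and Hoxc8. Hoxd13 is in these counts, though it had enough counts to be tested only through the IL6 shRNA1 group. Lower were also 7 (20.6%, against 6.16% of all genes): Hoxc12, Hoxc13, Hoxa4, Hoxa9, Hoxa3, Hoxa10 and Hoxc10. The 4 HoxA genes among them lie on chromosome 6, where 216 of 797 tested genes were called lower. The part of that chromosome-wide shift in this count was not tested. At least 2-fold apart were 8 members, 6 of them higher and 2 lower, where 2.48% of all genes were called with such a fold.

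The median log2 fold change of the 34 members was -0.08, beside -0.01 over all genes, and the median of its absolute value was 0.37, beside 0.20. In 13 members (38.2%) the highest library of one group lay below the lowest of the other, as in 10.9% of all genes. Of these 13, 12 were called, and the other is Hoxc11 (log2 fold change -0.23 ± 0.10 SE, adjusted p = 0.15). Hoxd13, which entered the test through the IL6 shRNA1 group alone, is among the 12. The summed level of the 39 genes was 314 ± 19.9 CPM with IL6 shRNA1 and 372 ± 24.5 CPM in control (SD, n = 5 each), with ranges of 288 to 333 and 350 to 407 CPM.

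**Figure D2:**
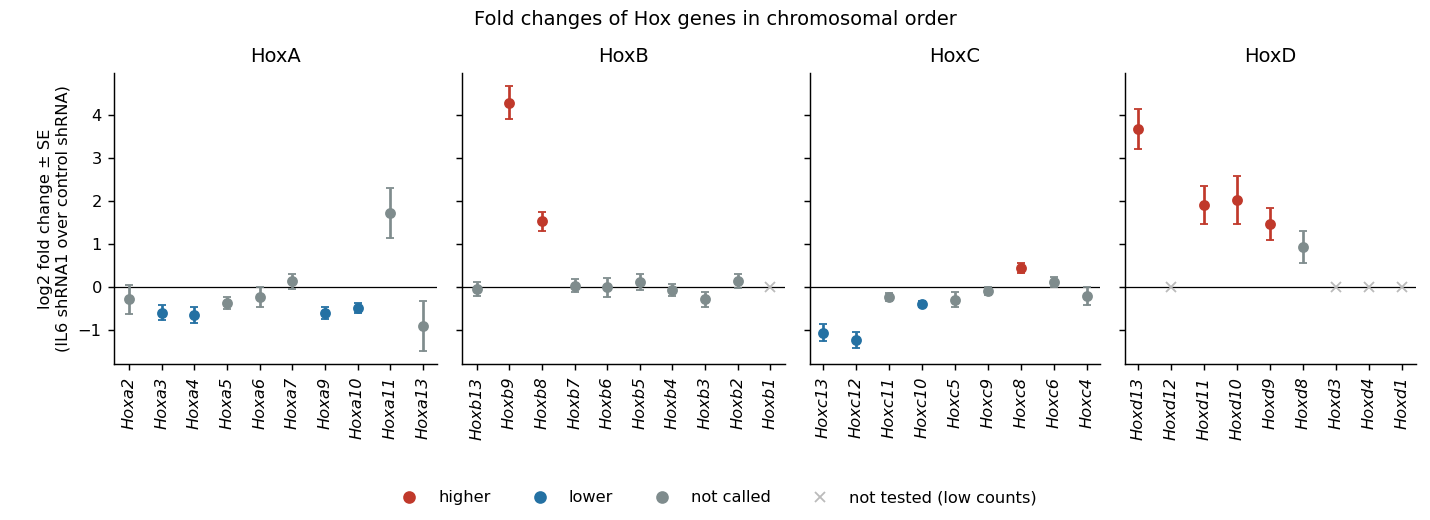
Log2 fold change (IL6 shRNA1 over control shRNA) with its standard error for Hox genes, in chromosomal order within each cluster; red and blue points passed an adjusted p of 0.05, grey points did not, and crosses at 0 mark the 5 genes with too few counts. Hoxb9 (4.29) and Hoxd13 (3.67) stand highest, Hoxc12 (-1.23) and Hoxc13 (-1.05) are the lowest called points, and the tested HoxB genes other than Hoxb9 and Hoxb8 (1.53) lie near 0.

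Within HoxB, 2 adjacent genes rose and the 7 other tested members stayed between -0.28 and 0.14 on the log2 scale without passing the test. Hoxb9 (ENSMUSG00000020875.9, chr11:96271457-96276595), a gene of thoracic skeleton and mammary gland development, stood at 20.3, 18.6, 24.5, 14.6 and 21.1 CPM in IL6 shRNA1 libraries 1 to 5. In control libraries 1 to 5 it stood at 0.721, 0.584, 1.76, 1.6 and 0.297 CPM. The lowest IL6 shRNA1 library lay well above the highest control library, with a log2 fold change of 4.29 ± 0.39 SE (adjusted p = 0.00044), or 19.6-fold.

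Hoxb8 (ENSMUSG00000056648.5, chr11:96281905-96285315), which is active in early blood cell precursors among other sites, lies 5.309 kb downstream of Hoxb9. It read 3.63, 4.69, 6.01, 5.45 and 5.24 CPM with IL6 shRNA1 and 1.70, 1.41, 2.06, 2.22 and 1.25 CPM in control. These groups too did not overlap, and the log2 fold change was 1.53 ± 0.21 SE (adjusted p = 0.0024).

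The genes on either side did not pass the test. Hoxb7, 1.307 kb beyond Hoxb8, stood at 5.86 ± 0.92 and 5.73 ± 0.77 CPM (0.03 ± 0.15 SE on the log2 scale, adjusted p = 0.91). The interval of that change (95%) ran from -0.31 to 0.38. On the other side Hoxb13, 74.009 kb upstream of Hoxb9, stood at 9.80 ± 1.35 and 10.1 ± 2.29 CPM (-0.04 ± 0.16 SE, adjusted p = 0.89). Values for Hoxb6 (-0.01), Hoxb5 (0.12), Hoxb4 (-0.07), Hoxb3 (-0.28) and Hoxb2 (0.14) were of the same size, with adjusted p from 0.27 to 0.99.

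Hoxb9 made up 31.6% ± 4.78 of the HoxB counts with IL6 shRNA1 and 2.38% ± 1.48 in control (SD, n = 5 each). Hoxb8 made up 7.96% and 4.2%. The summed HoxB level was 62.7 ± 5.23 CPM against 40.9 ± 1.76 CPM, and it was the only cluster besides HoxD whose sum was higher with IL6 shRNA1.

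Of the 2 tested non-members between Hoxb13 and Hoxb9, 1 was higher. Gm27605, a small RNA gene nearer to Hoxb13, stood at 2.51 against 2.53 CPM (-0.01 ± 0.19 SE, adjusted p = 0.98). Gm53, a long intergenic non-coding RNA at chr11:96251105-96264868, ends 6.588 kb before Hoxb9 and was named after its values were seen. It read 10.5, 8.0, 10.4, 6.57 and 11.5 CPM with IL6 shRNA1 and 0.339, 0.438, 0.387, 0.414 and 0.178 CPM in control. The log2 fold change was 4.70 ± 0.25 SE, with an adjusted p of 1.2e-05. The groups lie far apart, at 902 counts in all against 37, and 0 control libraries reached the level of the filter on low counts.

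The gene of miR-196a on this chromosome, Mir196a-1, starts 0.295 kb past the end of Gm53 and was likewise named after its values were seen. It had 11, 9, 19, 21 and 19 counts with IL6 shRNA1 and 3, 2, 0, 1 and 0 in control, below the filter for testing. The ratio of summed counts per library size was 14.1, with a 95% interval of 6.20 to 39.6 that covers counting error only. In a fit without the filter its log2 fold change was 3.72 ± 0.61 SE (adjusted p = 0.0016). A library of this kind counts the precursor and any transcript across it, not the mature microRNA whose sequence is given above.

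Mir196a-1 reads and Hoxb8, whose UTR holds the near-complete match, were thus both higher in the IL6 shRNA1 group. The second miR-196a gene, Mir196a-2 in HoxC, had 0, 3, 0, 0 and 3 counts with IL6 shRNA1 and 0 in every control library. Mir10a in HoxB had 4, 0, 0, 1 and 3 counts against 0 in every control library, and neither was called without the filter (adjusted p = 0.23 and 0.16).

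Inside HoxB or within 500 kb of it, 18 genes besides the members could be tested, of which 3 were higher and 0 lower. Among all genes tested 5.62% were higher and 6.16% lower. The 3 higher genes are Gm53 and, outside the cluster, Igf2bp1 and B4galnt2. The window was chosen with Hoxb9 and Igf2bp1 known from earlier results of these data. Gm53 entered the test through the IL6 shRNA1 group alone. The count of 3 is therefore a description, and an excess over the share of all genes was not tested. Igf2bp1, which encodes an RNA-binding protein of fetal tissues, lies 188.375 kb upstream of Hoxb13. It read 36.1, 31.1, 35.0, 28.3 and 31.7 CPM against 7.26, 5.70, 6.06, 6.52 and 3.86 CPM (2.46 ± 0.15 SE on the log2 scale, adjusted p = 2.4e-05). Its neighbour B4galnt2, a glycosyltransferase gene 42.271 kb away, was at 1.07 CPM against 0.458 CPM (1.21 ± 0.26 SE, adjusted p = 0.016). The B4galnt2 call was lost with a leukocyte score as covariate (0.74, adjusted p = 0.55), with the replicate number as a block (adjusted p = 0.060) and without the 3 most distant libraries (adjusted p = 0.18), all of which are described further on.

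**Figure D3:**
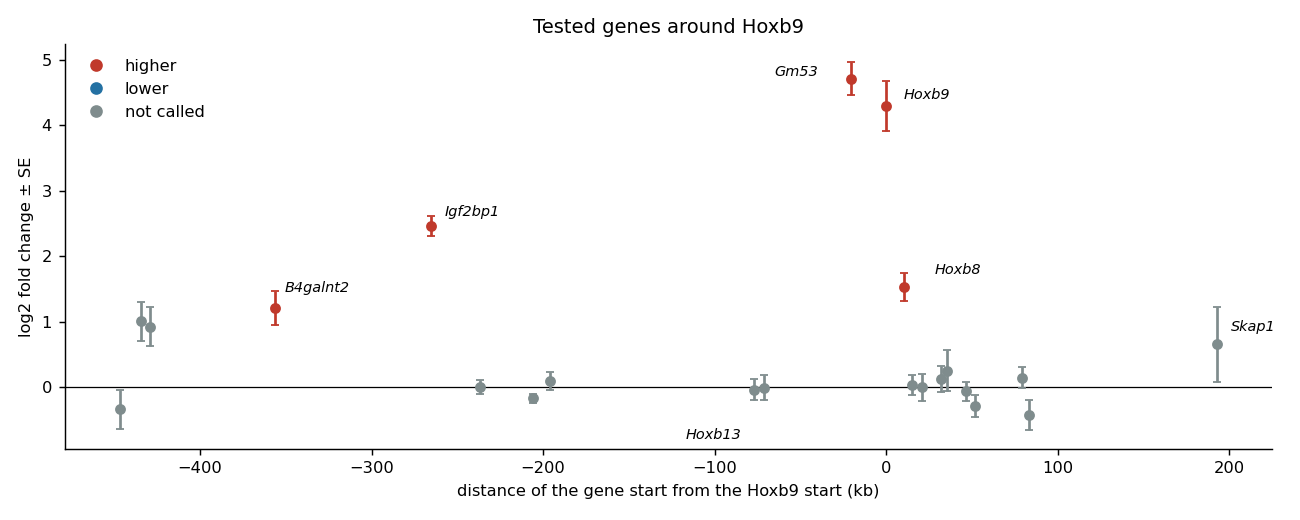
Log2 fold change (IL6 shRNA1 over control shRNA, with its standard error) of every tested gene around Hoxb9, against the distance of its start from the Hoxb9 start in kb. Red points passed an adjusted p of 0.05; Gm53, Hoxb9, Hoxb8, Igf2bp1 and B4galnt2 are red, and the genes between Igf2bp1 and Gm53 lie near 0.

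The genes between these points did not pass the test. Atp5g1, a subunit gene of ATP synthase and the nearest tested gene upstream of HoxB, was at 164 against 153 CPM (0.10 ± 0.13 SE, adjusted p = 0.67). Skap1, the nearest downstream and a T-cell adaptor gene, was at 1.55 against 0.976 CPM (0.65 ± 0.58 SE, adjusted p = 0.47).

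HoxD showed the other block of higher genes, at low levels. All 5 tested members had positive fold changes, and 4 passed. Hoxd13 (ENSMUSG00000001819.4, chr2:74668310-74671599), the gene of digit and external genital development at the posterior end of the cluster, had 51, 15, 30, 18 and 22 counts in IL6 shRNA1 libraries 1 to 5. In control libraries 1 to 5 it had 2, 3, 3, 2 and 1.

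The 2 groups did not overlap, and the control libraries lay near the limit of detection. In CPM these were 2.73, 0.741, 1.64, 0.876 and 1.16 against 0.0849, 0.146, 0.129, 0.103 and 0.0593 (log2 fold change 3.67 ± 0.46 SE, adjusted p = 0.0019). The ratio of summed counts per library size was 13.2, with a 95% counting interval of 7.17 to 27.2. Hoxd13 entered the test through the IL6 shRNA1 group alone: 5 of 5 of those libraries and 0 of the 5 controls reached the filter level of 0.509 CPM. It was not tested under a filter of 1 CPM in 5 libraries, so its fold change describes a gene that had to be high in that group to be tested.

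Hoxd11, a gene of forearm and kidney development (chr2:74679557-74687016), read 4.28, 2.57, 4.2, 1.27 and 2.7 CPM against 1.40, 1.12, 0.601, 0.259 and 0.534 (1.91 ± 0.45 SE, adjusted p = 0.022). IL6 shRNA1 library 4 lay below control library 1, so these groups overlapped. Hoxd10 (chr2:74691924-74695105), a gene of hindlimb innervation, read 3.90, 3.46, 2.18, 1.46 and 2.96 CPM against 1.10, 0.877, 0.644, 0 and 0.771. Its groups did not overlap, and control library 4 had no count (2.02 ± 0.56 SE, adjusted p = 0.042).

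Hoxd9 (chr2:74697727-74700208), which shares roles in limb and mammary gland with its paralogues, read 2.57, 2.87, 2.02, 2.24 and 5.72 CPM against 1.61, 0.536, 1.46, 1.14 and 0.712 (1.48 ± 0.37 SE, adjusted p = 0.029). IL6 shRNA1 library 5 was the high value. Hoxd8, the most abundant HoxD gene, had a log2 fold change of 0.93 ± 0.36 SE and did not pass (adjusted p = 0.11), with 5.45, 5.93, 7.97, 6.57 and 16.1 CPM against 6.15, 4.33, 6.27, 2.53 and 2.61.

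Fold changes in HoxD were thus largest at Hoxd13 and smallest at Hoxd8, and differences between these genes were not tested. Hoxd11 and Hoxd10 share the overlapping gene model Gm28309, which had 0 to 2 counts a library. Within 500 kb, 4 other genes could be tested and 0 passed, where 11.8% of all genes did. The nearest on either side are Mrpl23-ps1 (0.45 ± 0.33 SE, adjusted p = 0.38) and Mtx2, a mitochondrial import gene (-0.02 ± 0.10 SE, adjusted p = 0.91).

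The calls of Hoxd11, Hoxd10 and Hoxd9 were each lost when 1 of several libraries was left out, while the values stayed positive. That of Hoxd10 ran from 1.71 to 2.28 with 1 library omitted. Hoxd11 lost its call without IL6 shRNA1 library 3 (adjusted p = 0.053) or control library 5 (0.057). Hoxd9 lost it without IL6 shRNA1 library 2 (0.061) or 5 (0.062), or control library 2 (0.065), 4 (0.051) or 5 (0.073). Hoxd10 lost it without any of the IL6 shRNA1 libraries or of control libraries 2, 3 and 5, with adjusted p from 0.05 to 0.091. Hoxb9, Hoxb8 and Hoxd13 kept theirs without any single library, though Hoxd13 entered the test through the IL6 shRNA1 group alone.

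The promoters of Hoxd13 and Hoxb8 are shown as the control regions of members that rose in 2 different clusters. They are the 250 bases before the RefSeq start in GRCm38.p6, both on the plus strand, with capitals for TATAAA and CCAAT on either strand. The table of promoters held 24 such windows for 22 Hox genes. Hoxb9 had no entry.

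Hoxd13 promoter, chr2:74667975-74668224: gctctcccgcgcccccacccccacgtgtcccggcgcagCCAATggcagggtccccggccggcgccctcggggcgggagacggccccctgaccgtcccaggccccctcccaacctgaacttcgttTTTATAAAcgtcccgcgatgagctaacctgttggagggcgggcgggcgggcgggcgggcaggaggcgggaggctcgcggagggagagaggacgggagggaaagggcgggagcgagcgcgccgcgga
Hoxb8 promoter, chr11:96281655-96281904: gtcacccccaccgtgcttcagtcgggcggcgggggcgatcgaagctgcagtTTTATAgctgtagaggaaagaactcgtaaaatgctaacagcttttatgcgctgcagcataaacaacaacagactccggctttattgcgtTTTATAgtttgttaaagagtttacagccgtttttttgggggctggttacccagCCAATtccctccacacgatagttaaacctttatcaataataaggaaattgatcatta

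In the Hoxd13 window TATAAA begins 126 and 124 bases before the start on opposite strands, as 1 overlapping stretch, and CCAAT 212 bases before it. In the Hoxb8 window TATAAA begins 199 and 110 bases and CCAAT 57 bases before the start. TATAAA occurred in 4 of the 24 Hox windows and in 12.4% of 32851 windows of all genes, and CCAAT in 14 of the 24 and in 33.8%. These letters are a description of the windows, not of bound factors.

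In HoxC, 3 of the 4 most abundant genes were lower with IL6 shRNA1. Hoxc12 (ENSMUSG00000050328.2, chr15:102936757-102938609) read 28.4, 32.0, 24.2, 21.4 and 17.7 CPM with IL6 shRNA1 and 49.1, 67.7, 48.7, 49.1 and 76.3 CPM in control. The groups did not overlap, and the log2 fold change was -1.23 ± 0.18 SE (adjusted p = 0.0038), or 2.35-fold lower.

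Hoxc13 (ENSMUSG00000001655.6, chr15:102921103-102928814), which drives hair keratin genes, read 23.1, 18.8, 21.5, 18.4 and 13.1 CPM against 31.6, 46.3, 29.2, 36.3 and 53.7 (-1.05 ± 0.19 SE, adjusted p = 0.009). In both genes control libraries 2 and 5 were the highest and IL6 shRNA1 library 5 the lowest. Hoxc10 (chr15:102966796-102971893) read 36.9, 31.3, 34.6, 32.4 and 34.3 CPM against 43.2, 46.1, 39.6, 47.0 and 44.8 (-0.38 ± 0.07 SE, adjusted p = 0.0086). These groups also did not overlap, though the change was small.

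Hoxc8 (chr15:102990607-102994111), a gene of thoracic identity, went the other way. It read 14.7, 10.8, 13.2, 11.1 and 11.9 CPM against 10.6, 8.23, 9.11, 9.16 and 8.19 (0.44 ± 0.12 SE, adjusted p = 0.037). The call was lost without IL6 shRNA1 library 3 (adjusted p = 0.071) or 5 (0.06), or control library 2 (0.079), 3 (0.059), 4 (0.058) or 5 (0.08). Hoxc9 (-0.09), Hoxc6 (0.12), Hoxc5 (-0.29) and Hoxc4 (-0.20) did not pass, with adjusted p from 0.26 to 0.56.

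The summed HoxC level was 178 ± 17.9 CPM with IL6 shRNA1 and 249 ± 22.6 CPM in control. Hoxc12 made up 13.8% ± 2.13 of it against 23.2% ± 3.19. The gene model of Hoxc5 spans Hoxc10, Hoxc9, Hoxc8 and Hoxc6 on the same strand, so reads could be split among them. Hoxc12 and Hoxc13 overlap no other annotated gene.

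Hotair, the long non-coding RNA between Hoxc12 and Hoxc11, stood at 3.74 CPM with IL6 shRNA1 and 5.19 CPM in control (log2 fold change -0.47, adjusted p = 0.081). It was named after its values were seen. Inside HoxC or within 500 kb, 22 other genes were tested, 1 was higher and 1 lower. These numbers are near the shares of all genes, 5.62% higher and 6.16% lower. Nckap1l, an actin regulator of blood cells, had a log2 fold change of 0.80 (adjusted p = 0.04), and Map3k12, a neuronal kinase gene, of -0.42 (adjusted p = 0.011). Calcoco1 upstream (-0.37 ± 0.12 SE, adjusted p = 0.058) and Smug1 downstream (-0.04 ± 0.09 SE, adjusted p = 0.79), the nearest tested genes, did not pass.

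HoxA had 4 lower members and 0 higher ones among 11 tested. Of all genes 6.16% were lower and 5.62% higher, and of the 797 tested on chromosome 6 216 were lower and 21 higher. Hoxa9 (chr6:52223100-52231089), the oviduct gene of the tract and a well known leukaemia gene, read 16.8, 16.8, 13.1, 12.1 and 11.9 CPM against 18.5, 21.0, 20.9, 20.5 and 26.8 (-0.61 ± 0.13 SE, adjusted p = 0.018). Hoxa10 (chr6:52231197-52240854), the uterine gene, read 13.8, 14, 19.9, 14.1 and 13.4 CPM against 21.1, 22.8, 20.5, 20.1 and 20.9 (-0.49 ± 0.11 SE, adjusted p = 0.022). Neither gene's groups overlapped, with IL6 shRNA1 library 3 of Hoxa10 closest to the controls.

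Hoxa4 (chr6:52189671-52191753), a gene of the neck vertebrae, read 1.87, 2.67, 2.68, 2.87 and 2.01 CPM against 2.93, 4.14, 3.44, 4.09 and 4.45 (-0.65 ± 0.19 SE, adjusted p = 0.047). Hoxa3 (chr6:52169062-52213336), required for thymus and parathyroid glands, read 7.0, 8.74, 6.39, 5.06 and 5.13 CPM against 7.55, 10.1, 9.19, 10.7 and 11.3 (-0.59 ± 0.17 SE, adjusted p = 0.049). Hoxa3 was the only one of the 4 whose groups overlapped. Its gene model spans Hoxa4, Hoxa5 and Hoxa6 and runs against antisense genes, and the sources used here do not give the strand setting of the counting.

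For 3 of these genes the call was lost when 1 of several libraries was left out. With all 10 libraries the adjusted p of Hoxa4 and Hoxa3 was already 0.047 and 0.049. Hoxa10 lost its call without IL6 shRNA1 library 2 (adjusted p = 0.061), 4 (0.052) or 5 (0.055) or control library 2 (0.06). Hoxa4 lost it without any library other than control library 1, with adjusted p from 0.059 to 0.11. Hoxa3 lost it without IL6 shRNA1 libraries 3, 4 or 5 or control libraries 2, 3, 4 or 5, with adjusted p from 0.073 to 0.12. Hoxa9 kept its call without any single library.

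The other 7 HoxA genes did not pass. Hoxa11, the gene of the lower uterus, had a log2 fold change of 1.72 ± 0.58 SE (adjusted p = 0.076) at 0.875 against 0.26 CPM. Hoxa13, the vaginal and distal limb gene, stood at -0.90 ± 0.57 SE (adjusted p = 0.31), with 0.569 to 4.48 CPM among the controls alone. Hoxa2 (-0.28), Hoxa5 (-0.37), Hoxa6 (-0.23) and Hoxa7 (0.14) had adjusted p from 0.11 to 0.65. The summed HoxA level was 54.5 ± 5.01 CPM with IL6 shRNA1 and 75.2 ± 6.42 CPM in control.

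Chromosome 6 as a whole was lower in the libraries labelled IL6 shRNA1. Of its 797 tested genes 216 were called lower and 21 higher, and their median log2 fold change was -0.23, where the HoxA median was -0.37. The corresponding medians of the chromosomes of HoxB, HoxC and HoxD were -0.02, -0.06 and -0.03, beside cluster medians of 0.03, -0.23 and 1.91. The part of this chromosome-wide shift in the HoxA values was not tested.

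Inside HoxA or within 500 kb, 11 other genes were tested, of which 3 were lower and 0 higher. Lower were 6.16% of all genes and 216 of the 797 tested on chromosome 6, and 5.62% of all genes were higher. Halr1, a long non-coding RNA gene and the nearest tested gene on the low-coordinate side of the cluster, stood at 0.545 against 1.6 CPM (-1.54 ± 0.35 SE, adjusted p = 0.019). Skap2, an adaptor gene of immune cells, had a log2 fold change of -0.33 (adjusted p = 0.03). The antisense gene Hoxaas2 was at -0.98 (adjusted p = 0.049) and lies inside the cluster. The nearest on the other side, Gm8129, was at 0.51 ± 0.34 SE (adjusted p = 0.34).

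**Figure D4:**
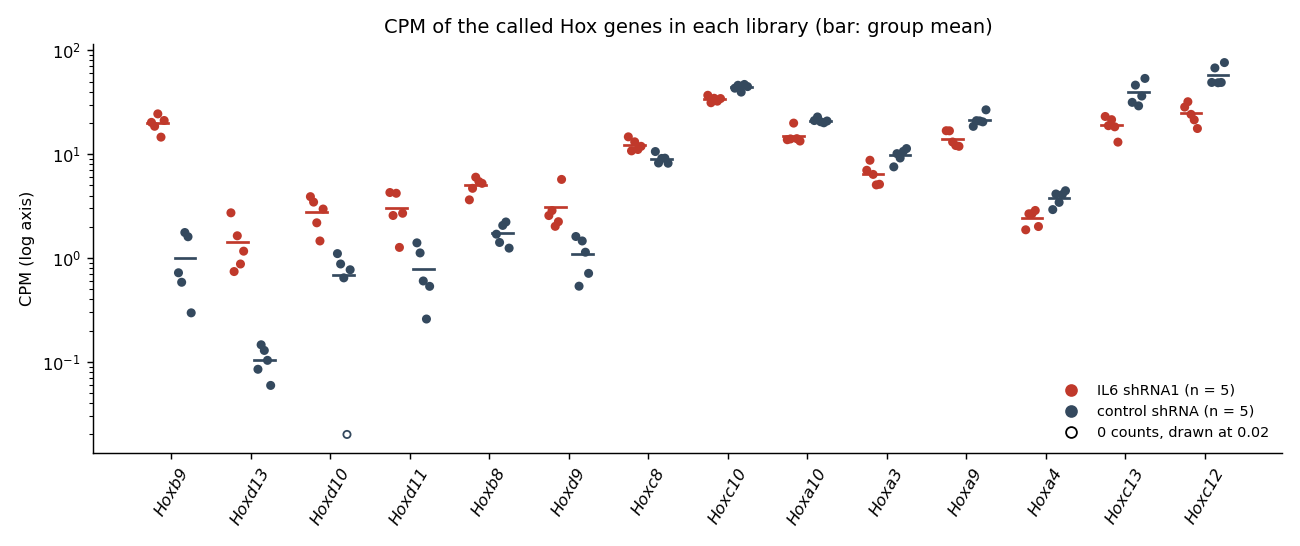
CPM, on a log axis, of the 14 called Hox genes in each of the 10 libraries (red, IL6 shRNA1; dark blue, control shRNA), with bars at the group means; the open circle is the control library with 0 Hoxd10 counts, drawn at 0.02. The red and blue points are fully separated for Hoxb9, Hoxd13 and Hoxb8 and mix for Hoxd11 and Hoxa3.

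Paralogues with the same number shared a sign in some groups and not in others. In group 9 the log2 fold changes were -0.61 for Hoxa9, 4.29 for Hoxb9, -0.09 for Hoxc9 and 1.48 for Hoxd9. In group 13 they were -0.90 for Hoxa13, -0.04 for Hoxb13, -1.05 for Hoxc13 and 3.67 for Hoxd13. In group 8, Hoxb8 (1.53) and Hoxc8 (0.44) rose, and Hoxd8 had a value of 0.93 without passing. Group 10 held Hoxa10 (-0.49) and Hoxc10 (-0.38), which fell, and Hoxd10 (2.02), which rose. In group 4 the values were all below 0, at -0.65 for Hoxa4, which fell, and at -0.07 for Hoxb4 and -0.20 for Hoxc4, which did not pass.

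Genes that act with or on the Hox clusters were counted beside them. Of 9 cofactor genes of the PBX, MEIS and PKNOX families, 0 were higher and 2 lower, with a median log2 fold change of -0.17 beside -0.01 over all genes. Over all genes 5.62% were higher and 6.16% lower, which is the background for this and the following lists. Meis2 was lower (-0.46 ± 0.13 SE, adjusted p = 0.043), as was Meis3 (-0.56 ± 0.17 SE, adjusted p = 0.0496). Pbx3 (0.23), Meis1 (0.04) and Pknox1 (-0.17) did not pass. None of the 8 Cdx, Evx and ParaHox genes, upstream activators and relatives of the clusters, had enough counts to be tested.

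Among 28 Polycomb genes 0 were higher and 8 lower (median -0.18). The smallest p were those of Phc1 (-0.67 ± 0.09 SE, adjusted p = 0.0027), Rybp (-0.39 ± 0.08 SE, 0.016), Cbx2 (-0.61 ± 0.13 SE, 0.016) and Ezh2 (-0.41 ± 0.09 SE, 0.019). Ezh2 is the methyltransferase that lays down the silencing mark on histone H3, and Phc1 and Cbx2 are subunits of the complex that reads it. Bmi1, a core subunit of that complex, was also lower (-0.31 ± 0.08 SE, adjusted p = 0.026). Of the 8 lower genes 5 lie on chromosome 6, whose shift is given above: Phc1, Rybp, Ezh2, Pcgf1 (-0.38, adjusted p = 0.038) and Aebp2 (-0.22, 0.0496). The last pair were named after their values were seen. The part of that shift in the Polycomb count was not tested.

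Of 17 trithorax and H3K27 demethylase genes 1 was higher and 2 lower (median -0.17), a number near the background. Mllt1 (-0.33, adjusted p = 0.0077) and Men1, which encodes menin (-0.43, 0.013), were lower, and Rbbp5, a shared subunit of the methyltransferase complexes, was higher (0.28, 0.033). Kmt2a, the methyltransferase best known for holding Hox genes active (-0.12, 0.65), and the demethylase gene Kdm6b (-0.40, 0.076) did not pass.

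For the retinoic acid pathway 15 of 17 genes were tested, 1 was higher and 2 were lower (median 0.25). The receptor gene Rara (-0.49, adjusted p = 0.0074) and Cyp26a1, whose enzyme breaks retinoic acid down (-0.70, 0.026), were lower. Rdh10, an enzyme gene of its synthesis, was higher (0.47, 0.016). Rarb, a direct retinoic acid target (-0.07, 0.91), and Cyp26b1 (0.73, 0.11) did not pass.

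Scores of some marker lists differed between the groups before adjustment, and no list passed an adjusted p of 0.05. The mean leukocyte score, in log2 units about each gene's mean, was 0.51 with IL6 shRNA1 and -0.51 in control (exact two-sided permutation test, p = 0.016, adjusted over 8 marker lists 0.085). Endothelial markers summed to 236 to 455 CPM against 174 to 263 CPM (p = 0.032, adjusted 0.085, same exact permutation test), with 0 of 10 called, and the score of the ovarian tumour and mesothelial list gave the same adjusted value (exact p = 0.024). Skin epithelial markers, of which 3 of 5 were tested and 0 called, summed to 85.2 to 917 CPM against 17.97 to 102 CPM (exact p = 0.048, adjusted 0.095). Fibroblast and pericyte, skeletal muscle, adipocyte and red blood cell scores gave p from 0.13 to 0.34 in the same exact permutation test. The part of the endothelial, mesothelial and skin lists in the Hox values, those of Hoxc12 and Hoxc13 included, was not tested.

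With the leukocyte score as a covariate 2 members remained called, Hoxb9 (3.86 ± 0.51 SE, adjusted p = 0.02) and Hoxd13 (4.62 ± 0.62 SE, adjusted p = 0.018), where 0.246% of all genes were called. Igf2bp1 (2.35, adjusted p = 0.0011) and Gm53 (4.75, adjusted p = 0.00047) were called as well. Hoxd13 and Gm53 entered the test through the IL6 shRNA1 group alone. No other tested neighbour named above kept its call, and Nckap1l went from 0.80 to 0.07 (adjusted p = 0.93).

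The calls named in the cofactor, Polycomb, trithorax and retinoic acid lists were all lost in that fit. Meis2 was then at -0.15 (adjusted p = 0.81), Phc1 at -0.41 (0.20), Rybp at -0.21 (0.58), Cbx2 at -0.36 (0.53), Ezh2 at -0.19 (0.63) and Bmi1 at -0.09 (0.80). Meis3 was at -0.29 (0.76) and Rara at -0.32 (0.38), while Men1 (-0.45, 0.28) and Cyp26a1 (-0.52, 0.51) moved by less than 1.5 times.

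The value moved by more than 1.5 times for several members in that fit. Hoxc12 was at -0.78 (adjusted p = 0.22), Hoxc13 at -0.49 (0.45), Hoxd9 at 0.49 (0.76), Hoxa9 at -0.36 (0.55) and Hoxa3 at -0.29 (0.77). Hoxb8 was at 1.09 (adjusted p = 0.20). The score and the group go together in these 10 libraries and cannot be fully told apart.

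Leaving out the 3 most distant libraries of a principal component analysis (IL6 shRNA1 library 5 and control libraries 2 and 5) gave 3 higher and 2 lower members. Those were Hoxb9 (3.84, adjusted p = 0.0021), Hoxd13 (3.74, 0.033), Hoxb8 (1.31, 0.038), Hoxc12 (-0.89, 0.025) and Hoxc13 (-0.66, 0.038). Of all genes 0.846% were then called higher and 0.533% lower. The estimates for Hoxd10 (2.19) and Hoxd11 (1.99) were as large as before, without passing, and that for Hoxd9 was 0.78 (adjusted p = 0.16).

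**Figure D5:**
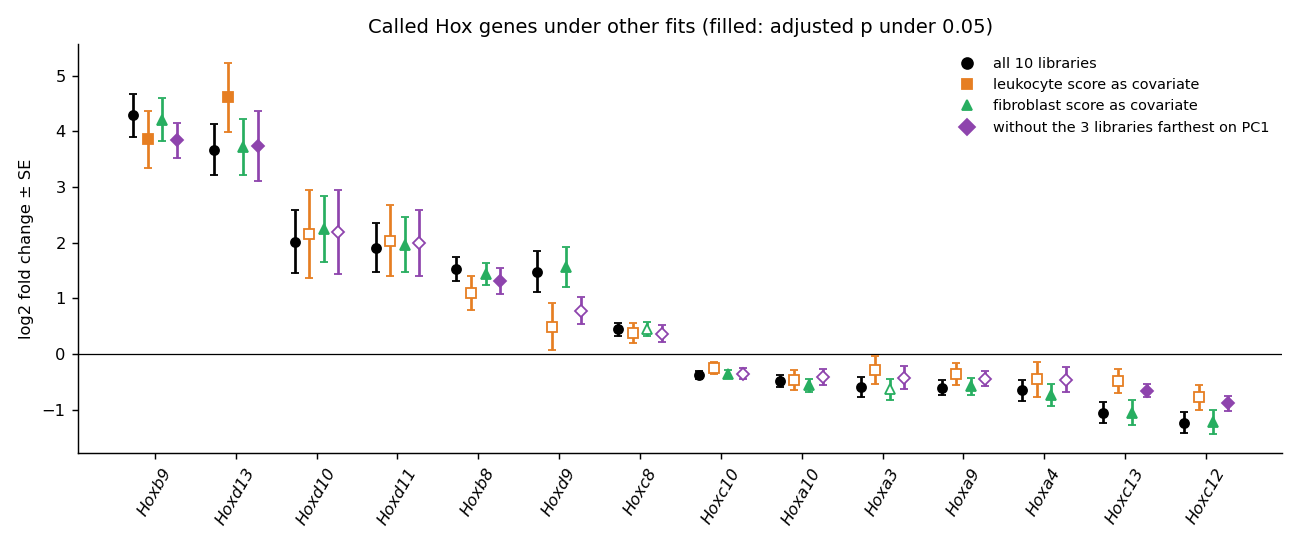
Log2 fold change with its standard error for the 14 called Hox genes in the fit to all 10 libraries (black), with the leukocyte score (orange) or the fibroblast score (green) as a covariate, and without the 3 most distant libraries (purple); filled symbols have an adjusted p under 0.05. Hoxb9 and Hoxd13 are filled in all 4 fits, and Hoxc12 and Hoxc13 move towards 0 with the leukocyte score. Hoxd13 entered the test through the IL6 shRNA1 group alone.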

How the data were processed

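RNA was counted in 10 samples. The authors' deposited count table holds raw whole-number counts per gene, and their deposited FPKM table holds the same genes scaled by gene length and column total. Per the submitters' processing notes, the builds were mm10 and GRCm38 and the tools STAR 2.7.0f, featureCounts in Subread 1.6.4, R 4.0.4, Trim Galore 0.6.6, FastQC 0.11.9 and SAMtools 1.11. The sources used here do not give the annotation release, the strand setting or the tool behind the FPKM values.

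The counts were fitted with edgeR 4.0.16 in R 4.3.3. Genes passing filterByExpr (minimum count 10) were kept, which left 15064, libraries were scaled with TMM factors, and a robust quasi-likelihood model with the group as its term was tested over all of them with Benjamini-Hochberg adjustment. Calls needed an adjusted p under 0.05. CPM values use the TMM factors, and SD and n refer to the 5 libraries of a group. Levels were compared between genes only in FPKM. Marker scores were compared by an exact permutation test over 252 regroupings. The code was tested on simulated data.

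The named genes were all Hox members, called genes with a known symbol within 500 kb, the nearest tested gene on each side, up to 4 called members of each related list with the smallest p, and 11 listed genes. The values of 2 of these genes are counted in the totals but not reported here. Members, lists and the windows around the clusters were chosen with earlier results of these data known, among them those of Hoxb9 and Igf2bp1. Alternatives were RLE, upper quartile and library-total scaling, no filter, a filter of 1 CPM in 5 libraries, DESeq2 1.42.0, voom of limma 3.58.1, no robust dispersion, the replicate number as a block, a leukocyte or fibroblast score as covariate, log2 FPKM with pseudocounts of 1 and 0.1, an adjusted p under 0.01, a window of 1000 kb, and omission of each library or of 3 libraries. Sequences came from RefSeq tables for GRCm38.p6 and GENCODE M21 transcripts, read with Python 3.11.15, numpy 2.4.6 and pandas 2.3.3, and figures were drawn with matplotlib 3.10.9.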

Additional observations from a re-analysis of the deposited data

Results flagged for a closer look

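In 8 of 72 groups of 5 libraries checked, the highest or lowest library stood apart from the other 4 by more than Dixon's 95% limit for 5 values (0.71 of the range). Chance alone marks about 1 in 20 groups. IL6 shRNA1 library 5 stood high for 2 adjacent HoxD genes, with 5.72 CPM of Hoxd9 (2.02 to 2.87 in the others) and 16.1 CPM of Hoxd8 (5.45 to 7.97), and low for Hoxc11, with 41.3 CPM (57.3 to 60.6). The same library is also the farthest on the first principal component.

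IL6 shRNA1 library 3 stood high for Hoxa10, with 19.9 CPM (13.4 to 14.1 in the others), and for Hoxb13, with 12.2 CPM (8.81 to 9.41). In the control group library 3 was high for Hoxb7, with 7.04 CPM (5.10 to 5.65), library 4 was high for Hoxc11, with 70.8 CPM (61.8 to 63.6), and library 2 was low for Hoxc5, with 2.39 CPM (3.08 to 3.26). Hoxb9, Hoxd13, Hoxb8, Hoxc12 and Hoxc13 had no such library in either group.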

How the results depend on the processing

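Hoxb9 and Hoxd13 kept their direction and their call in every alternative that gave a value, with log2 fold changes of 2.65 to 4.62 and 0.57 to 4.62. The lowest values came from FPKM with a pseudocount of 1, which shrinks low genes by construction. Hoxd13 entered the test through the IL6 shRNA1 group alone, so its kept call is not separate support. It was not tested under the 1 CPM filter. Depth limits it, with 1 to 3 counts per control library, and the 5 untested members.

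The numbers of members called higher and lower (7 and 7) were 2 and 0 with the leukocyte score, 3 and 3 at an adjusted p under 0.01, and 3 and 2 without the 3 farthest libraries. Omitting 1 library gave 3 to 7 higher and 4 to 7 lower members. Higher members were 3 without control library 5 and 4 without control library 2 or IL6 shRNA1 library 3 or 5, and lower members were 4 without control library 2 or IL6 shRNA1 library 4 or 5. Over all genes, omitting 1 library gave 415 to 1445 higher and 415 to 1329 lower. The all-gene count of higher calls was 553 with library totals, 1653 with DESeq2, 25 with the leukocyte score, 187 at an adjusted p under 0.01 and 130 without the 3 farthest libraries. The count of lower calls was 583 without the filter, 12 with the leukocyte score, 194 at an adjusted p under 0.01 and 82 without the 3 farthest libraries. The cause was not tested.

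Same-numbered libraries were not treated as pairs, as no label pairs them. Their deviations correlated between -0.30 and 0.28, with 2 of 5 pairs over 0.1, and 1 IL6 shRNA1 library was closest to its own number. Whether the same number means a shared culture or animal cannot be told from these values. With the number as a replicate block 5 members were higher and 2 lower, and 349 and 406 genes overall. HoxA then had 1 lower neighbour and HoxC 0 higher ones, and Hoxb6 was at 0.017.

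Neighbour counts within 500 kb also moved. HoxA lower neighbours (3) were 0 with the leukocyte score and 1 to 3 when 1 library was omitted. HoxB higher neighbours (3) were 2 with the leukocyte score or the replicate block, 5 with DESeq2 and 3 to 5 when 1 library was omitted. HoxC higher neighbours (1) were 2 with RLE, 3 with DESeq2, 0 with the leukocyte score and 0 to 2 when 1 library was omitted. HoxC lower neighbours (1) were 3 with DESeq2, 0 with the leukocyte score and 1 to 4 when 1 library was omitted. A window of 1000 kb gave 2 lower for HoxB, 2 lower for HoxC and 1 higher for HoxD.

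Values that changed sign belonged to genes that did not pass. With the leukocyte score they were Hoxa2 (0.12), Hoxa6 (0.16), Hoxa13 (0.43), Hoxb13 (0.25), Hoxb7 (-0.12), Hoxc6 (-0.031), Kmt2a (0.20), Cyp26b1 (-0.023) and Il6 (-0.76). With the fibroblast score they were Hoxb7 (-0.078) and Kmt2a (0.0022). Without the 3 farthest libraries they were Hoxa7 (-0.0055), Hoxa13 (0.12) and Hoxb13 (0.21). Hoxb6 became positive with RLE (0.0077), no filter (0.012), the 1 CPM filter (0.0087), DESeq2 (0.0074), voom (0.012) and FPKM (0.013 and 0.024). With 1 library omitted, values ran across 0 from -0.11 to 0.10 for Hoxb6, -0.13 to 0.091 for Hoxb13, -0.018 to 0.13 for Hoxb7, -0.16 to 0.0202 for Hoxb4, -0.049 to 0.16 for Meis1 and -0.19 to 0.13 for Rarb.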
